A study of Mus musculus with 8 samples.

Results

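Oxidative phosphorylation genes were followed in the lungs of mice injected with naphthalene and of untreated controls. They were chosen by symbol: the Nduf families of complex I, Sdha to Sdhd of complex II, Uqcr genes and Cyc1 of complex III, Cox4 to Cox8 genes of complex IV, Atp5 genes of complex V, and the mt-Nd, mt-Cytb, mt-Co and mt-Atp genes. These were 114 of the 22244 genes in the count table. Of them, 101 lie in the nuclear genome and 13 in the mitochondrial genome. The symbols also bring in 8 complex I assembly factors and 5 extra gene copies, and Ndufa4, a subunit of complex IV despite its name, was counted with complex IV.

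The first group was 4 mice injected with naphthalene, an aromatic hydrocarbon that airway club cells turn into toxic metabolites. The second was 4 mice labelled as having no treatment. All were adult male wild-type C57BL/6J mice, an inbred strain, and RNA came from the right cranial lobe of the lung. Neither dose nor vehicle, nor how long after injection lungs were taken, is given in the sources used here, so an effect of the injection itself cannot be told apart from that of naphthalene. Each library is taken as 1 mouse, although the labels give no animal identifiers.

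The respiratory chain sits in the inner mitochondrial membrane. Complex I takes electrons from NADH and complex II from succinate, ubiquinone carries them to complex III, cytochrome c carries them on to complex IV, and complex IV hands them to oxygen. Protons pumped on the way drive complex V, the ATP synthase. Complexes I, III, IV and V are built from subunits of both genomes, so nuclear and mitochondrial transcripts contribute to the same machines, whereas complex II is wholly nuclear.

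Total counts ranged from 11233709 to 16792306 in naphthalene libraries and from 10743842 to 13518183 in control libraries. Lung markers were abundant in every library: the alveolar type 2 genes Sftpc, Sftpb and Lamp3 summed to 8326 to 10985 counts scaled to library size (CPM) in naphthalene lungs and 8051 to 9790 CPM in control lungs. The club cell genes Scgb1a1, Cyp2f2 and Scgb3a2 summed to 975 to 2659 CPM in naphthalene lungs and 4592 to 9433 CPM in control lungs. The libraries of a group differed well beyond counting noise. Naphthalene 1 and naphthalene 4 were the pair farthest apart within a group, at a chi-square of 48.5 per degree of freedom, against 5.57 for the closest pair, control 1 and control 2.

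Of the 114 genes, 6 were listed at 0 in every library, among them Ndufa10 and Ndufb3 of complex I, Sdhc of complex II and Cox5b of complex IV. Ndufa10 and Ndufb3 are accessory subunits of complex I, and Sdhc anchors complex II in the membrane. All 6 lie on chromosome 1. Of 1150 protein-coding genes of chromosome 1 matched by symbol to a RefSeq table on GRCm38.p6, 1138 (99%) were listed at 0 in all 8 libraries. On the other 18 autosomes the share was 0.399% to 11.5%. The 0 of these 6 genes is therefore shared with nearly the whole chromosome and gives no level of the gene in lung. Complex II was thus seen through 3 of its 4 subunits.

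**Figure D1:**
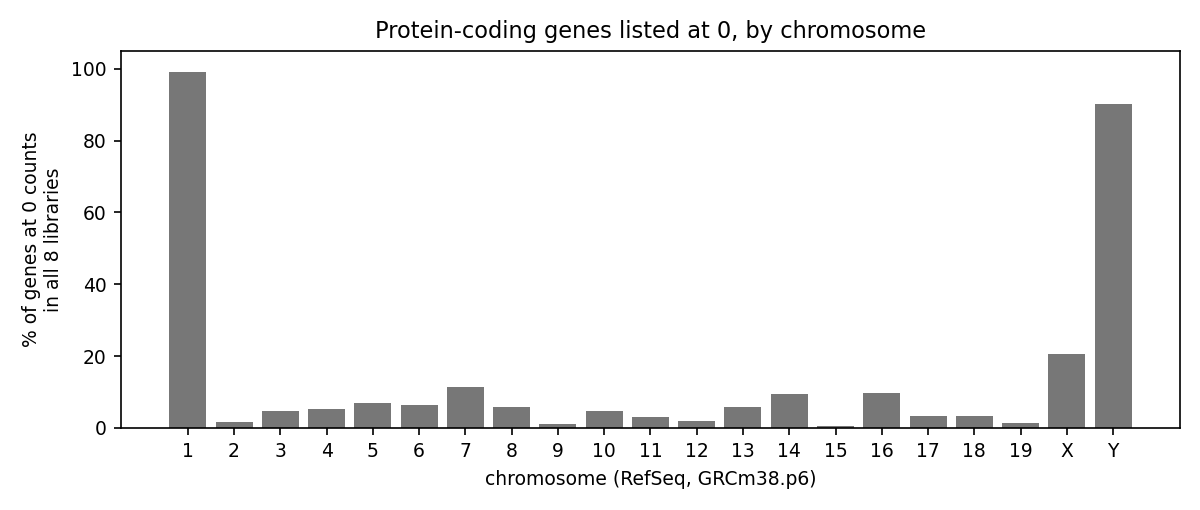
Share of protein-coding genes with 0 counts in all 8 libraries (y axis, %) by chromosome (x axis; RefSeq, GRCm38.p6). Chromosome 1 reached 99%, against at most 11.5% on any other autosome; the 6 respiratory chain genes at 0 all lie on chromosome 1.

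The mitochondrially encoded genes fell into 2 sets by level. In CPM per kilobase of gene, mt-Co1, the catalytic subunit of complex IV, had 3633 in naphthalene lungs and 3676 in control lungs. The complex I genes mt-Nd1, mt-Nd2, mt-Nd4, mt-Nd5 and mt-Nd6, and mt-Cytb of complex III, had 104 to 545 CPM per kilobase in naphthalene lungs and 113 to 538 in control lungs. In contrast mt-Co2, mt-Atp8, mt-Atp6, mt-Co3, mt-Nd3 and mt-Nd4l, which lie next to one another between mt-Co1 and mt-Nd4, had 0.129 to 10.8 CPM per kilobase in naphthalene lungs and 0 to 7.18 in control lungs. No library held more than 174 counts of any of these 6 genes.

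These low genes have near-perfect nuclear copies. Of all 50-base windows of the gene, 100% for mt-Co2, 99.5% for mt-Atp6, 99.9% for mt-Co3, 98.0% for mt-Nd3 and 98.8% for mt-Nd4l occurred unchanged in an annotated nuclear transcript. The share was 62.2% for mt-Nd4 and 51.1% for mt-Co1, at most 8.2% for mt-Nd2 and mt-Nd5, and 0 for mt-Nd1, mt-Nd6, mt-Cytb and mt-Atp8. The copies of these first 7 genes are the pseudogenes Gm28661, Gm10925, Gm28437, Gm28438, Gm10222, Gm28439 and Gm29216, which lie side by side on the minus strand at chr1:24611535-24616197 (GRCm38). They are not among the symbols of the count table. mt-Co2 and Gm28661 were identical at 681 of 681 aligned bases. A stretch of both is shown because a read from it cannot be placed by its sequence. The mitochondrial strand is chrM:7023-7082 (plus) and the nuclear one chr1:24615496-24615555 (minus), both GRCm38 with GENCODE M21 annotation:
mt-Co2: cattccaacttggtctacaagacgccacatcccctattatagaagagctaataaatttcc
Gm28661: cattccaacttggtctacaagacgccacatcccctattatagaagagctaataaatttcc

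How reads that map to several places were counted is not given in the sources used here. The levels of mt-Co2, mt-Atp6, mt-Co3, mt-Nd3 and mt-Nd4l therefore cannot be read as transcript abundance, and those of mt-Nd4 and mt-Co1 are uncertain. mt-Atp8 is as low without such a window; it is the shortest of the 13 genes, and the interval of chromosome 1 that corresponds to it lies between annotated pseudogenes. mt-Nd6 is encoded on the strand opposite to the other 12, and since the strand setting of the counting is not given, its reads and antisense reads cannot be told apart.

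**Figure D2:**
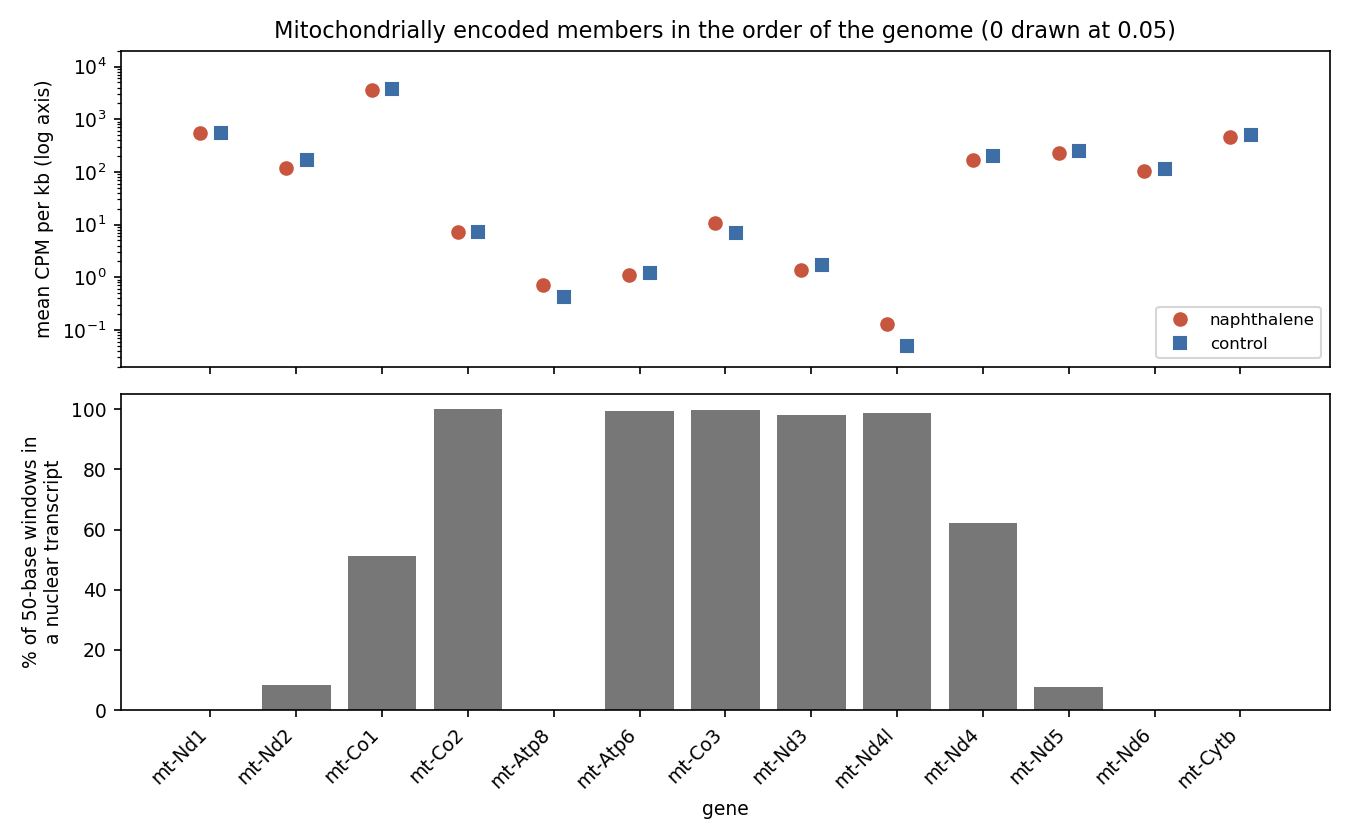
Upper panel: mean CPM per kilobase (log axis, n = 4 per group) of the 13 mitochondrially encoded genes in genome order, naphthalene left of control in each pair, with 0 drawn at 0.05. Lower panel: share of each gene's 50-base windows found unchanged in a nuclear transcript (%); the 5 genes at 98.0% or more had at most 10.8 CPM per kilobase, and mt-Atp8 was as low at 0%.

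As a sum, the nuclear genes of the chain were more abundant in naphthalene lungs than in control lungs, and the mitochondrially encoded genes showed no such separation. The sum took 80 nuclear genes, leaving out assembly factors, extra copies and tissue isoforms. It kept the 6 at 0, the inhibitor Atp5if1 with complex V and the supercomplex factor Cox7a2l with complex IV. Levels were 4700, 5104, 5806 and 6140 CPM in naphthalene 1 to 4, against 4047, 4495, 4646 and 4618 CPM in control 1 to 4. Every naphthalene library lay above every control library, with means of 5437 ± 654 and 4451 ± 277 CPM (SD, n = 4 each), a log2 ratio of 0.28 (SE 0.10). The 13 mitochondrially encoded genes summed to 5216, 6450, 8882 and 9490 CPM in naphthalene 1 to 4, against 6301, 7538, 9152 and 7949 CPM in control 1 to 4. Here the groups overlapped, with naphthalene 1 below and naphthalene 4 above every control library, at a log2 ratio of −0.07 (SE 0.23).

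The mitochondrial sum divided by the nuclear sum was 1.11, 1.26, 1.53 and 1.55 in naphthalene lungs and 1.56, 1.68, 1.97 and 1.72 in control lungs. The naphthalene libraries were all below the control libraries, though naphthalene 4 and control 1 nearly touched (log2 ratio −0.35, SE 0.14). Since mt-Co1 gave 69.6% to 76.1% of the counts of these genes, the ratio was also taken without it. It was then 0.287, 0.302, 0.372 and 0.413 in naphthalene lungs and 0.473, 0.447, 0.506 and 0.422 in control lungs, again without overlap (log2 ratio −0.44, SE 0.14). With any 1 library left out the log2 ratio of the full sums stayed between −0.42 and −0.26. These sums have no test, as the genes were chosen with earlier results known.

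**Figure D3:**
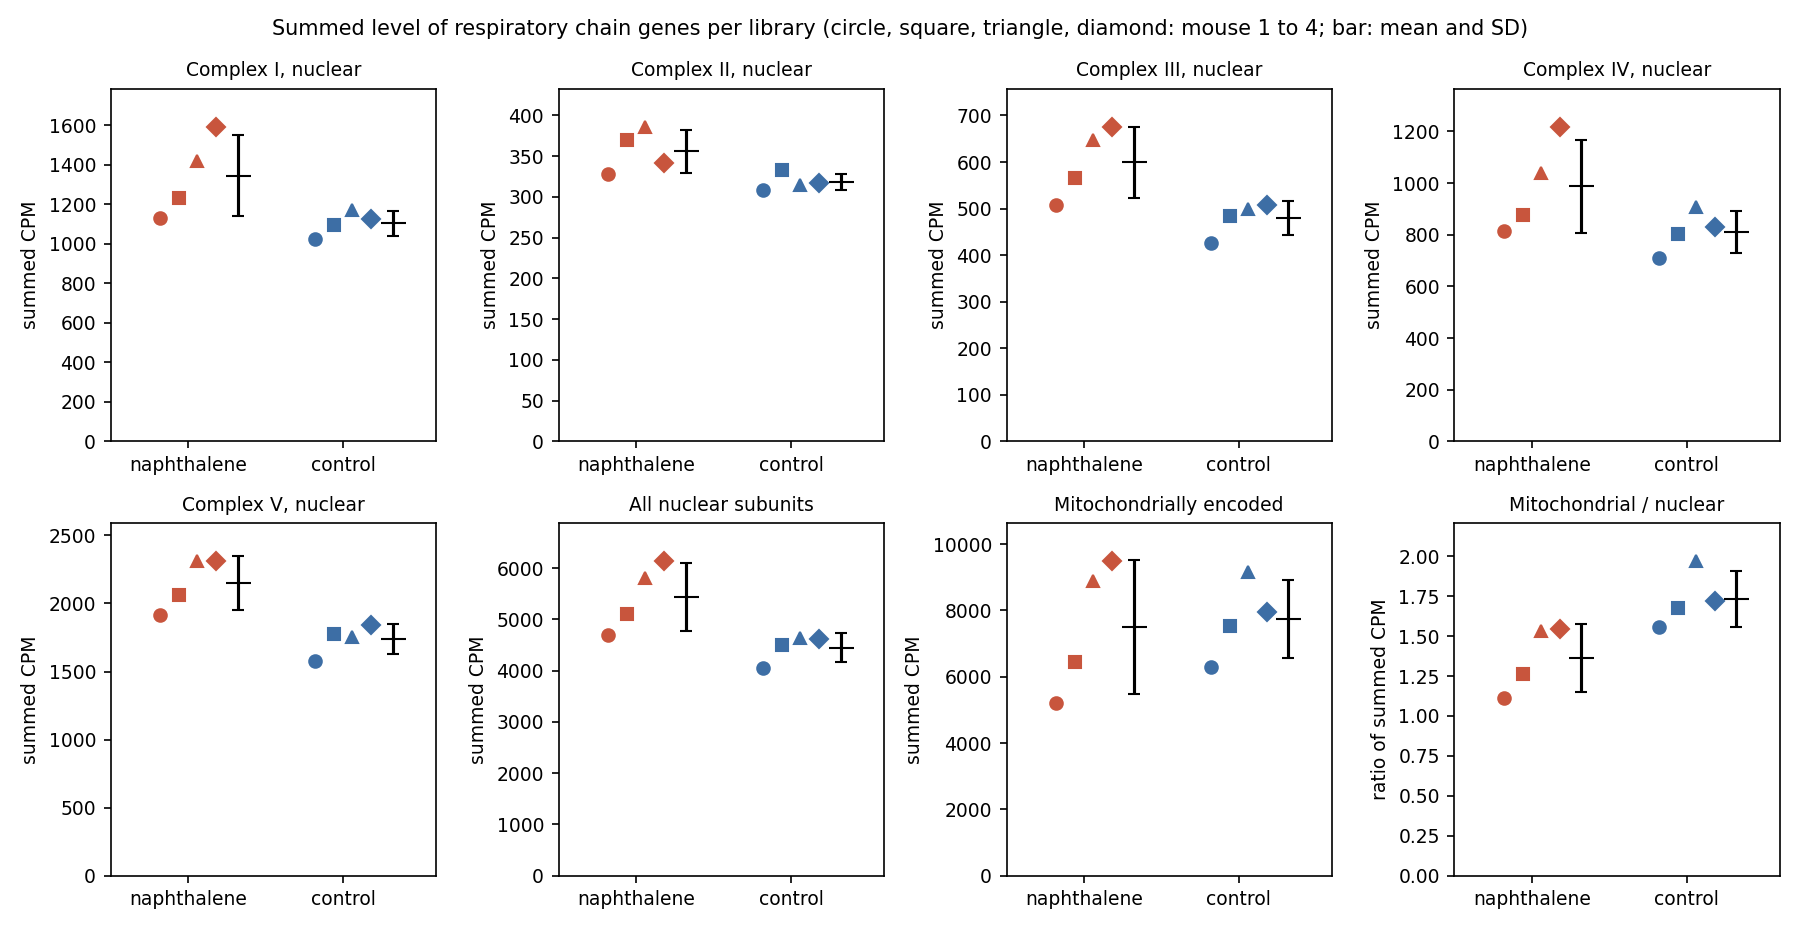
Summed CPM of the nuclear genes of each complex (subunits, with Atp5if1 and Cox7a2l), of these genes over all complexes and of the mitochondrially encoded genes, and the ratio of the mitochondrial to the nuclear sum (y axes, from 0), with naphthalene left of control; points are libraries 1 to 4 and bars the mean and SD. The nuclear sum was 4700 to 6140 CPM in naphthalene lungs and 4047 to 4646 CPM in control lungs, whereas the mitochondrial sums overlapped.

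Gene by gene, 97 of the 114 had enough counts to be tested, 88 nuclear and 9 mitochondrial. Besides the 6 at 0, the 11 left out were the 5 extra copies Ndufab1-ps, Ndufb11b, Ndufb4b, Ndufb4c and Ndufs6b, the testis-type subunit genes Cox7b2 and Cox8c, and mt-Nd3, mt-Nd4l, mt-Atp6 and mt-Atp8. In edgeR's quasi-likelihood test, adjusted over all 14192 genes tested at a threshold of 0.05, 22 of the 88 nuclear genes rose (25.0%) and 0 fell. Of all genes tested, 14.1% rose and 14.6% fell. At an unadjusted p under 0.05, 36 of the 88 nuclear genes differed in edgeR, a share close to the 5731 of all 14192 genes tested. Of these 36 nuclear genes 0 were lower, and voom gave 0 and DESeq2 1 lower nuclear gene at that level. The log2 fold change was above 0 for 80 and below 0 for 8 of the 88, with a median of 0.28 and a range of −0.45 to 1.06. The median over all genes tested was 0.01. Many of these genes have processed pseudogenes elsewhere in the mouse genome, so their counts also depend on how reads mapping to several places were treated. Groups did not overlap for 23 nuclear genes, all higher in naphthalene lungs, whereas of all genes tested 13.9% were higher and 14.7% lower without overlap.

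The number of nuclear genes that rose depended on single libraries. It was 11 without control 1, 12 without control 2, 13 without naphthalene 2 and 13 without naphthalene 3, but 42 without naphthalene 1. The share of all genes tested that rose moved as well, to 9.81% to 10.1% in the first 4 of these fits and to 17.3% without naphthalene 1. Naphthalene 1 was the lowest of its group for 55 of the 88 genes, naphthalene 4 the highest for 56, and control 1 the lowest of its group for 57. Of the 22 genes that rose, 8 also passed with any 1 library left out and under every other alternative tried: Ndufb6, Ndufa11, Cyc1, Uqcrq, Cox6a1, Atp5f1b, Atp5mc1 and Atp5o. The other 14 lost the call without at least 1 library, at adjusted p of up to 0.138 in edgeR, while all 22 kept a positive log2 fold change in each of these 8 fits.

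Several other measures had the same order of naphthalene libraries or its reverse. Total counts were lowest in naphthalene 4 and naphthalene 3 within their group and highest in naphthalene 1. The endothelial markers Pecam1, Cdh5 and Cldn5 summed to 1819, 1403, 1078 and 826 CPM in naphthalene 1 to 4 and to 1334 to 1593 CPM in control lungs, and none of the 3 passed the test. The macrophage markers Chil3 and Adgre1 summed to 328, 451, 771 and 887 CPM in naphthalene 1 to 4 and to 303 to 594 CPM in control lungs, with Marco, on chromosome 1, listed at 0. Of the 2, Adgre1 fell and Chil3 did not pass. The neutrophil markers S100a8, S100a9 and Retnlg summed to 155, 256, 432 and 441 CPM in naphthalene 1 to 4 and to 41.6 to 336 CPM in control lungs, and 1 of the 3 rose. The summed alveolar type 2 markers were lowest in naphthalene 1 and highest in naphthalene 4 within their group, but Sftpb, the only one of the 3 that rose, had the reverse order, with 2426, 2398, 2311 and 2109 CPM in naphthalene 1 to 4 and 1740 to 1877 CPM in control lungs. Further lists separated the groups rather than these libraries: T and B cell markers fell in 4 of 4 cases, with sums of 15.7 to 27.9 CPM in naphthalene lungs and 47.7 to 63.9 CPM in control lungs, and ciliated cell markers in 2 of 3, with 45.2 to 122 CPM in naphthalene lungs and 285 to 462 CPM in control lungs. The part of these shifts in the respiratory chain result was not tested. In bulk tissue, fewer cells of a type and less RNA per cell cannot be told apart. The nuclear genes tested had short transcripts, with a median of 680 bases against 2195.5 for all genes tested. With offsets for length and GC content, 31 nuclear genes were called and the median log2 fold change was 0.27, while the share of all genes that rose went up to 23.3% in that fit.

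**Figure D4:**
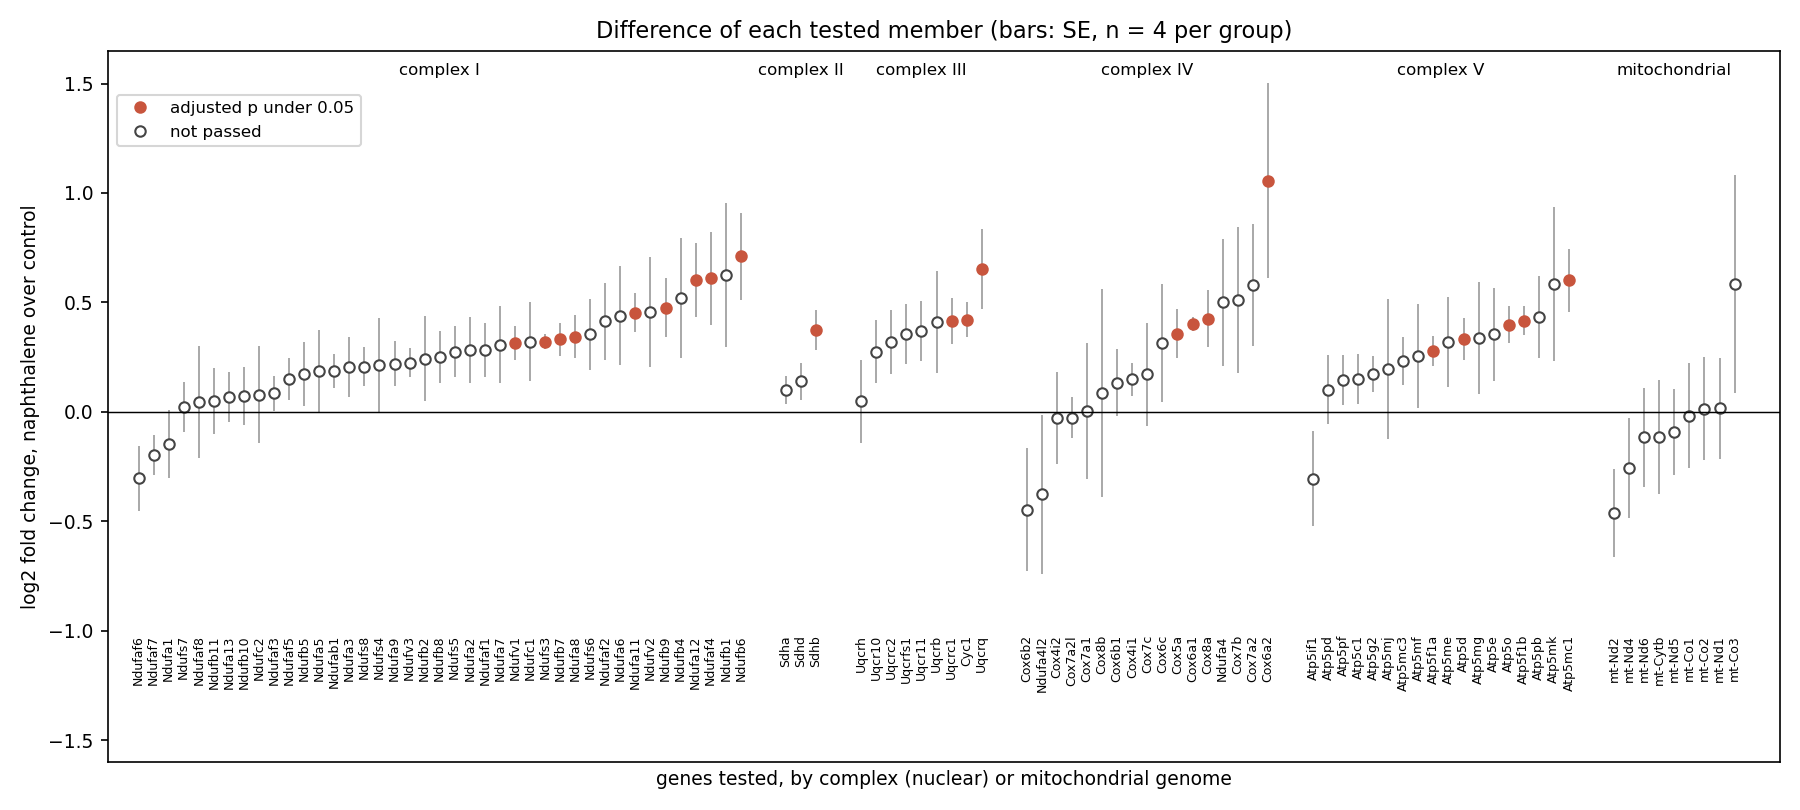
Log2 fold change (naphthalene over control, y axis) of the 97 genes tested, ordered within each complex for nuclear genes and apart for mitochondrially encoded ones; bars are SE (n = 4 per group) and filled points passed edgeR's test. The 22 filled points are all nuclear and all above 0, and 80 of 88 nuclear points lie above 0.

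None of the 9 mitochondrially encoded genes tested passed in edgeR, where only mt-Nd2 had an unadjusted p under 0.05. mt-Co1 had 3868, 4909, 6720 and 6953 CPM in naphthalene 1 to 4, against 4386, 5530, 6801 and 5998 CPM in control 1 to 4 (log2 fold change −0.02, edgeR adjusted p = 0.959). mt-Cytb, the cytochrome b core of complex III, had 364, 422, 599 and 749 CPM in naphthalene lungs, against 500, 563, 711 and 538 CPM in control lungs (−0.12, edgeR adjusted p = 0.710). Both genes spanned the control range from below to above, with naphthalene 1 lowest and naphthalene 4 highest.

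The membrane subunits of complex I followed the same order of libraries. mt-Nd1 had 347, 442, 635 and 660 CPM in naphthalene lungs, against 457, 510, 579 and 514 CPM in control lungs (0.02, edgeR adjusted p = 0.957). mt-Nd4 had 163, 184, 253 and 317 CPM in naphthalene lungs, against 253, 268, 313 and 262 CPM in control lungs (−0.26, edgeR adjusted p = 0.3205). mt-Nd5 had 314, 348, 466 and 546 CPM in naphthalene lungs, against 457, 423, 496 and 407 CPM in control lungs (−0.09, edgeR adjusted p = 0.707). For all 3, naphthalene 1 and naphthalene 2 lay below every control library and naphthalene 4 above.

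mt-Nd2 was the mitochondrial gene with the smallest p. It had 101, 95.4, 136 and 171 CPM in naphthalene lungs, against 161, 180, 187 and 165 CPM in control lungs, so that only naphthalene 4 reached the control range. Its log2 fold change was −0.46 (SE 0.20) and its adjusted p 0.0583 in edgeR, and the adjusted p was 0.00353 without naphthalene 4, 0.0364 in DESeq2 and 0.0428 in voom. Without naphthalene 4, mt-Nd4 also passed (log2 fold change −0.45, edgeR adjusted p = 0.0389). mt-Nd6 had 50.7, 39.8, 57.8 and 68.1 CPM in naphthalene lungs, against 79.2, 53.3, 50.8 and 51.2 CPM in control lungs (−0.12, edgeR adjusted p = 0.665), with control 1 above all other libraries.

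mt-Co2 and mt-Co3, the tested genes with nearly all windows in a nuclear copy, had few counts. mt-Co2 had 3.51, 3.98, 5.89 and 6.78 CPM in naphthalene lungs, against 4.03, 5.23, 5.10 and 5.30 CPM in control lungs (0.01, edgeR adjusted p = 0.970). mt-Co3 had 4.46, 4.63, 8.70 and 15.9 CPM in naphthalene lungs, against 3.68, 4.43, 8.52 and 5.51 CPM in control lungs (0.58, edgeR adjusted p = 0.308). Both groups overlapped for both genes. The 7 mitochondrially encoded genes with over 100 counts in every library had a median log2 fold change of −0.12. Among naphthalene libraries, but not in every control library, their deviations were wider than those of nuclear genes. Relative to the group mean, the median deviation of these 7 genes in naphthalene 1 to 4 was −0.44, −0.26, 0.19 and 0.42 on the log2 scale, and that of the 88 nuclear genes was −0.21, −0.10, 0.11 and 0.20. In control 1 to 4 it was −0.11, −0.03, 0.17 and −0.06 for the 7 genes, and −0.12, 0.03, 0.06 and 0.04 for the nuclear genes.

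Complex I, the NADH dehydrogenase, had 41 of its 50 nuclear genes tested. Of these, 9 rose (22.0%, beside 14.1% of all genes tested), 32 did not pass, and the median log2 fold change was 0.25. Its 37 nuclear subunit genes summed to 1133, 1231, 1422 and 1593 CPM in naphthalene 1 to 4, against 1023, 1098, 1170 and 1125 CPM in control 1 to 4, with overlap only because naphthalene 1 lay below control 3. Among the 5 core subunits tested, which carry the flavin and the iron-sulphur clusters or link them to the membrane arm, Ndufs3 and Ndufv1 rose. Ndufs7, Ndufs8 and Ndufv2 did not pass, at log2 fold changes of 0.02, 0.21 and 0.46. Ndufv2 did pass without naphthalene 1 (edgeR adjusted p = 0.00821) and, with all libraries, with length and GC offsets (edgeR adjusted p = 0.0176). Of 28 accessory subunits tested, which surround the core, 6 rose and 27 had a positive log2 fold change.

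The 3 complex I genes with the smallest p were accessory subunits. Ndufb6 had 22.1, 28.5, 33.7 and 41.3 CPM in naphthalene lungs, against 17.6, 18.0, 19.8 and 21.1 CPM in control lungs. The groups did not overlap, and the log2 fold change was 0.71 (SE 0.20, edgeR adjusted p = 0.0105). Ndufa11 had 23.6, 24.0, 27.6 and 28.1 CPM in naphthalene lungs, against 16.6, 19.7, 19.2 and 19.8 CPM in control lungs. It separated the groups as well, at 0.45 (SE 0.09, edgeR adjusted p = 0.0107). Ndufb9 had 60.1, 67.3, 74.7 and 84.4 CPM in naphthalene lungs, against 44.3, 49.2, 53.7 and 58.4 CPM in control lungs. Its groups also stood apart, at 0.48 (SE 0.14, edgeR adjusted p = 0.0150), but the adjusted p was 0.0508 without control 1.

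Ndufa12, Ndufa8, Ndufb7, Ndufs3 and Ndufv1 rose by log2 fold changes of 0.60, 0.34, 0.33, 0.32 and 0.32, all without overlap. Each lost the call when single libraries were left out. For Ndufs3 these were control 1 and control 2, at edgeR adjusted p of 0.0516 and 0.0553. For Ndufa12 they were control 1, control 2, control 4 and naphthalene 3, at 0.0508 to 0.0550. Ndufb7 and Ndufv1 lost it without control 2, control 3, control 4, naphthalene 2 or naphthalene 3, at up to 0.0832 for Ndufb7 and 0.0901 for Ndufv1. Ndufa8 lost it without any 1 of the controls, naphthalene 1 or naphthalene 2, at up to 0.136, with upper quartile scaling at 0.0649 and with no filter at 0.0732. Ndufa1, the only accessory subunit with a negative value, was at −0.15 and did not pass.

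The assembly factors of complex I help to build the complex but are not part of it. Of 8 tested, 1 rose (12.5%, near the 14.1% of all genes) and the median log2 fold change was 0.12. Ndufaf4 had 21.6, 30.7, 41.2 and 35.7 CPM in naphthalene lungs, against 18.8, 20.03, 23.2 and 22.3 CPM in control lungs. Naphthalene 1 lay within the control range, and the log2 fold change was 0.61 (SE 0.21, edgeR adjusted p = 0.0247). Without control 1, control 2, control 4 or naphthalene 3 its adjusted p was 0.0727, 0.0682, 0.0513 or 0.0743. Ndufaf6 and Ndufaf7 had log2 fold changes of −0.30 and −0.20 and did not pass. Of 10 further assembly factors of complex I outside the symbol families, Tmem126a and Foxred1 rose, by 0.50 and 0.30, and 0 fell. Foxred1 lost the call without any 1 of the controls, naphthalene 2 or naphthalene 3 (edgeR adjusted p 0.0611 to 0.113), with upper quartile scaling (0.0637), with no filter (0.0828) and with the replicate block (0.0680).

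Complex II, succinate dehydrogenase, is shared with the tricarboxylic acid cycle. Sdha, the flavoprotein that oxidises succinate, had 203.5, 228, 231 and 194 CPM in naphthalene lungs, against 199, 207, 193 and 199.5 CPM in control lungs (log2 fold change 0.10, edgeR adjusted p = 0.408). Naphthalene 2 and naphthalene 3 lay above the controls and the other two among them. Sdhb, the iron-sulphur subunit, had 64.3, 76.1, 76.7 and 80.5 CPM in naphthalene lungs, against 51.9, 62.5, 59.8 and 55.1 CPM in control lungs. It rose by 0.37 (SE 0.09, edgeR adjusted p = 0.0164) without overlap, but its adjusted p was 0.0573, 0.0532 and 0.05003 without control 1, control 4 and naphthalene 2. Sdhd, a membrane anchor, had 60.1, 65.9, 78.5 and 66.4 CPM in naphthalene lungs, against 58.1, 63.1, 62.2 and 62.4 CPM in control lungs (0.14, edgeR adjusted p = 0.309).

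Complex III passes electrons from ubiquinol to cytochrome c. All 9 nuclear genes had a positive log2 fold change, with a median of 0.37, and 3 of them rose (33.3%, beside 14.1% of all genes tested). Cyc1, the haem-bearing cytochrome c1, had 45.2, 45.3, 52.6 and 43.6 CPM in naphthalene lungs, against 38.6, 34.8, 32.9 and 33.1 CPM in control lungs. The lowest naphthalene value exceeded the highest control value, at 0.42 (SE 0.08, edgeR adjusted p = 0.00925).

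Uqcrc1, a core protein on the matrix side, had 104.6, 109, 90.2 and 86.9 CPM in naphthalene lungs, against 71.7, 77.9, 64.0 and 79.5 CPM in control lungs. It rose by 0.41 (SE 0.11, edgeR adjusted p = 0.0137) without overlap, with an adjusted p of 0.0513 without naphthalene 2. Uqcrq, a small ubiquinone-binding subunit, had 19.9, 17.5, 23.3 and 31.0 CPM in naphthalene lungs, against 14.6, 15.8, 14.4 and 13.3 CPM in control lungs. It rose by 0.65 (SE 0.18, edgeR adjusted p = 0.0139), again without overlap. Unlike most of the chain, Uqcrc1 was highest in naphthalene 1 and naphthalene 2. The Rieske protein gene Uqcrfs1 was at 0.36 and Uqcr11 at 0.37, with edgeR adjusted p of 0.0551 and 0.0520. Both passed in DESeq2, at 0.0481 and 0.0426, and without naphthalene 1, at 0.0143 and 0.0251, and Uqcrfs1 also without control 4, at 0.0388.

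Complex IV, cytochrome c oxidase, had 17 of 20 nuclear genes tested, 4 of which rose (23.5%, beside 14.1% of all genes tested). The common subunits and the tissue-specific isoforms differed in their values. All 10 common subunits tested had a positive log2 fold change, with a median of 0.38, and 3 of them rose. Of 6 tissue isoforms tested, 1 rose, and their median was −0.01. The difference between these 2 kinds of gene was not tested.

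Cox6a1 had the smallest p of all 97 genes. It had 67.5, 63.9, 67.9 and 69.4 CPM in naphthalene lungs, against 50.3, 49.9, 53.0 and 50.3 CPM in control lungs. The libraries of each group lay close together and far from the other group, at 0.40 (SE 0.03, edgeR adjusted p = 0.00339). Cox8a had 72.7, 68.0, 87.0 and 68.8 CPM in naphthalene lungs, against 44.3, 58.3, 58.6 and 59.3 CPM in control lungs. It rose by 0.43 (SE 0.13, edgeR adjusted p = 0.0216) without overlap, with an adjusted p of 0.0586 without control 1 and 0.0614 without naphthalene 3. Cox5a, which lies on the matrix side, had 28.9, 31.5, 37.3 and 37.5 CPM in naphthalene lungs, against 25.7, 26.8, 23.6 and 29.2 CPM in control lungs. It rose by 0.36 (SE 0.11, edgeR adjusted p = 0.0425), naphthalene 1 lay just inside the control range, and the call was kept only without control 4 or naphthalene 1. With the other libraries left out in turn its adjusted p was 0.0634 to 0.113, and it was 0.0503 in voom, 0.0620 with upper quartile scaling and 0.0587 with no filter.

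The remaining common subunits described here had positive log2 fold changes that did not pass. Cox7a2 had 59.8, 66.7, 89.6 and 117 CPM in naphthalene lungs, against 41.9, 56.4, 74.5 and 49.6 CPM in control lungs (0.58, edgeR adjusted p = 0.0703). Without control 3 or naphthalene 1 its edgeR adjusted p was 0.0289 or 0.0196. With all libraries Cox7a2 passed in DESeq2 (adjusted p = 0.0429), and in edgeR with length and GC offsets (0.0366) and with the replicate block (0.0249). Ndufa4 had 71.5, 87.5, 118 and 162 CPM in naphthalene lungs, against 60.9, 75.2, 96.2 and 77.9 CPM in control lungs (0.50, edgeR adjusted p = 0.123, or 0.0211 without naphthalene 1). With all libraries Ndufa4 passed in edgeR with length and GC offsets (adjusted p = 0.0124) and with the replicate block (0.0400). In both genes naphthalene 3 and naphthalene 4 lay above all controls. Cox4i1, the subunit where ATP acts on the enzyme, had 151, 163, 150.5 and 179.7 CPM in naphthalene lungs, against 144, 138, 140.0 and 159 CPM in control lungs (0.15, edgeR adjusted p = 0.246). Cox6b1 had 57.9, 70.7, 85.9 and 71.1 CPM in naphthalene lungs, against 53.5, 75.0, 65.7 and 65.9 CPM in control lungs (0.13, edgeR adjusted p = 0.489).

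Tissue isoforms replace a common subunit in particular cells. Cox6a2, the heart and skeletal muscle form of subunit 6A, had 5.65, 7.76, 9.05 and 4.58 CPM in naphthalene lungs, against 1.61, 3.70, 1.93 and 5.51 CPM in control lungs. Naphthalene 1, 2 and 3 exceeded all controls, while naphthalene 4 lay below control 4. Its log2 fold change was 1.06 (SE 0.45, edgeR adjusted p = 0.0459), and the adjusted p was 0.0834 to 0.124 without control 1, control 2, control 3, naphthalene 2 or naphthalene 3, and 0.0529 with upper quartile scaling. Cardiac muscle markers, which the walls of mouse pulmonary veins express, summed to 262 to 408 CPM in naphthalene lungs and 192 to 567 CPM in control lungs, and 0 of 7 tested passed, with Tnnt2 on chromosome 1 listed at 0. Skeletal muscle markers summed to 101 CPM in naphthalene 1, at most 5.15 CPM in the other naphthalene libraries and 3.78 to 9.24 CPM in control lungs. Their part in the Cox6a2 result was not tested.

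Cox4i2 is the lung-enriched, oxygen-responsive form of subunit 4. It had 29.0, 24.1, 17.0 and 16.0 CPM in naphthalene lungs, against 21.8, 23.7, 22.8 and 20.1 CPM in control lungs (−0.03, edgeR adjusted p = 0.924). Ndufa4l2, a hypoxia-responsive relative of Ndufa4, had 10.2, 5.54, 4.22 and 3.75 CPM in naphthalene lungs, against 8.07, 9.22, 5.18 and 8.74 CPM in control lungs (−0.38, edgeR adjusted p = 0.380). Without naphthalene 1 it fell, at −0.78 (edgeR adjusted p = 0.0238). Both genes were highest in naphthalene 1, opposite to most of the chain. The pericyte and smooth muscle markers Cspg4, Pdgfrb, Notch3, Higd1b, Acta2 and Myh11 had the same order, with sums of 732, 532, 348 and 314 CPM in naphthalene 1 to 4 and 410 to 683 CPM in control lungs, and 0 of 6 passed. Their part in these 2 genes was not tested.

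The remaining isoforms were rare. Cox6b2, named for its expression in testis, had 2.02, 2.61, 1.49 and 1.37 CPM in naphthalene lungs, against 3.23, 3.19, 1.76 and 2.22 CPM in control lungs (−0.45, edgeR adjusted p = 0.271). Cox7a1, a heart and muscle form, had 1.55, 0.783, 0.879 and 0.916 CPM in naphthalene lungs, against 1.08, 0.871, 0.615 and 1.58 CPM in control lungs (edgeR adjusted p = 0.994). Cox8b, of muscle and brown fat, had 3.45, 1.24, 1.67 and 3.57 CPM in naphthalene lungs, against 1.17, 3.19, 1.85 and 3.01 CPM in control lungs (edgeR adjusted p = 0.896). All 3 overlapped between groups, and the brown fat markers Ucp1, Cidea, Adipoq and Plin1 summed to 6.78 to 10.1 CPM in naphthalene lungs and 6.33 to 16.0 CPM in control lungs.

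The use of an isoform relative to its common counterpart was compared as a ratio of counts within each library, which does not depend on scaling. Ndufa4l2 had 14.2%, 6.33%, 3.56% and 2.32% of the counts of Ndufa4 in naphthalene 1 to 4, against 13.3%, 12.3%, 5.39% and 11.2% in control 1 to 4 (log2 difference −0.93, SE 0.64, exact permutation p = 0.257). Naphthalene 1 was the highest of all 8 libraries, naphthalene 2 lay within the control range and the other two below it. Cox6a2 had 10.1% ± 3.15 of the counts of Cox6a1 in naphthalene lungs and 6.31% ± 3.64 in control lungs (SD, n = 4 each; 0.79, exact permutation p = 0.171). Cox4i2 had 13.6% ± 4.49 of the counts of Cox4i1 in naphthalene lungs and 15.3% ± 1.96 in control lungs (SD, n = 4 each; −0.22, exact permutation p = 0.457).

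For the other pairs the log2 difference was −0.60 for Cox6b2 over Cox6b1, −0.54 for Cox7a1 over Cox7a2 and −0.36 for Cox8b over Cox8a. None of the 6 pairs passed, with adjusted p of 0.471 or 0.514 in the 2-sided exact permutation test. With 4 against 4 libraries the smallest p this test can give is 0.0286, which no single pair could carry past the threshold after adjustment over 6 pairs. The groups overlapped in all 6 pairs.

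**Figure D5:**
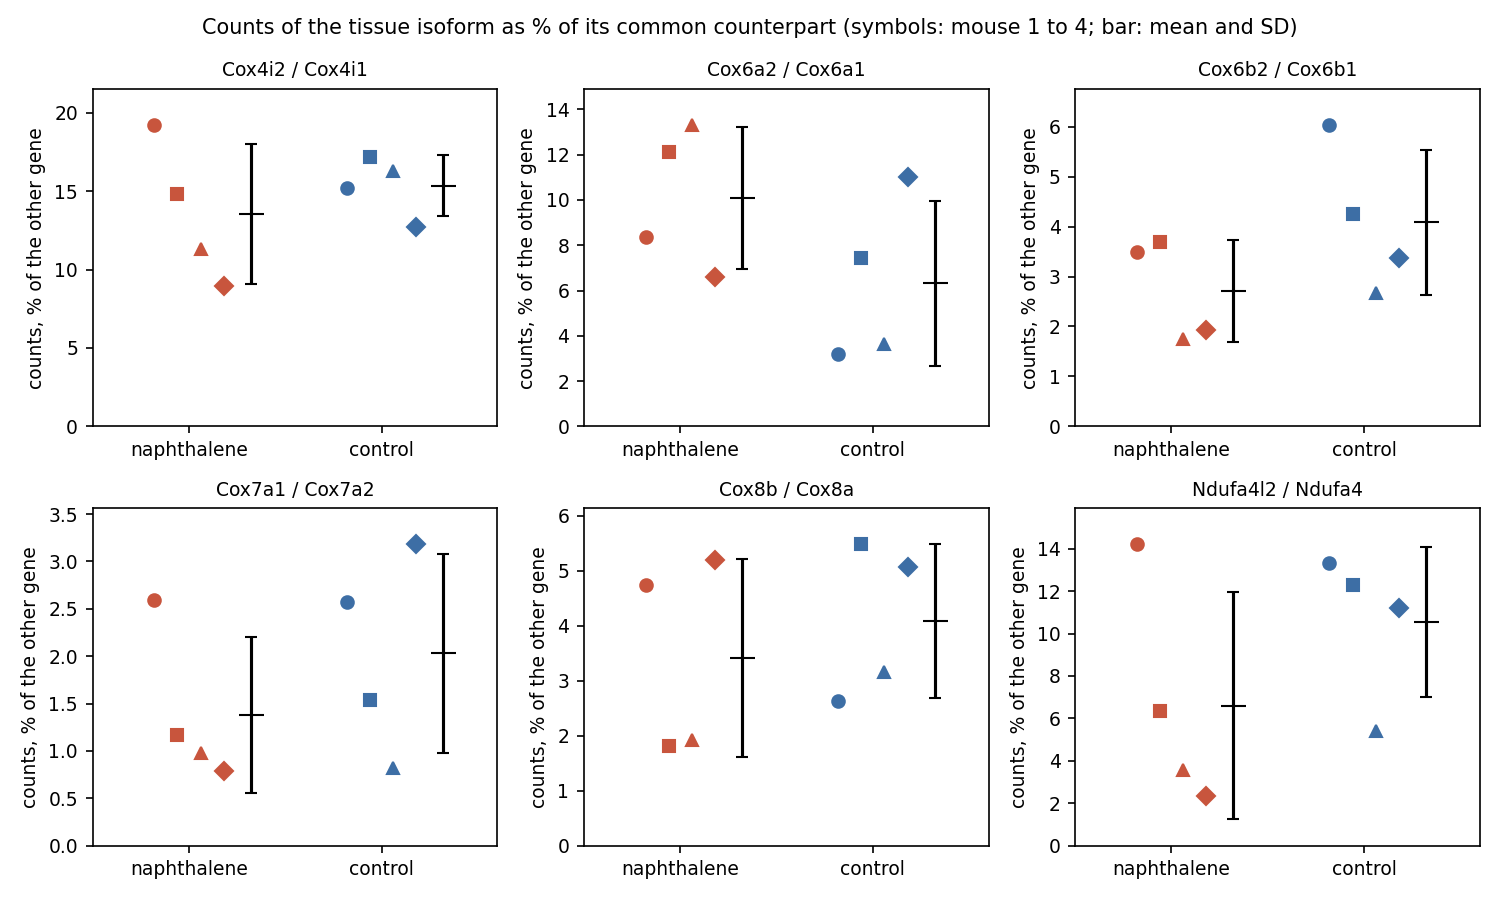
Counts of each tissue isoform as % of the counts of its common counterpart (y axes, from 0), for 6 pairs, naphthalene left of control; symbols are libraries 1 to 4 and bars the mean and SD. Ndufa4l2 over Ndufa4 was between 2.32% and 14.2% in naphthalene lungs and between 5.39% and 13.3% in control lungs, and the groups overlapped in every pair.

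Complex V, the ATP synthase, had all 18 nuclear genes tested, and 5 of them rose (27.8%, beside 14.1% of all genes tested). They summed to 1915, 2062, 2312 and 2312 CPM in naphthalene 1 to 4, against 1580, 1776, 1755 and 1839 CPM in control 1 to 4. The groups stood apart, with a log2 ratio of 0.31 (SE 0.08). Of the 5 genes of the catalytic F1 head and its stalk, Atp5f1a, Atp5f1b and Atp5d rose. Of the 3 c-ring genes, which encode the proton-driven rotor, Atp5mc1 rose, and of the 4 peripheral stalk genes Atp5o rose. The 5 small membrane subunits Atp5me, Atp5mf, Atp5mg, Atp5mj and Atp5mk had positive log2 fold changes of 0.20 to 0.58, and 0 of them passed in edgeR, with Atp5mk passing only without naphthalene 1 (adjusted p = 0.0229) or without both control 3 and naphthalene 1, where Atp5mg passed too.

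Atp5f1b, the catalytic beta subunit, had 533, 567, 593 and 502 CPM in naphthalene lungs, against 392, 424, 393 and 435 CPM in control lungs. It rose by 0.42 (SE 0.06, edgeR adjusted p = 0.00664) without overlap. Atp5mc1, one of 3 genes for the same mature c subunit, had 39.8, 41.6, 47.7 and 36.8 CPM in naphthalene lungs, against 25.1, 31.9, 22.1 and 30.1 CPM in control lungs. It rose by 0.60 (SE 0.14, edgeR adjusted p = 0.00667), while its paralogs Atp5g2 and Atp5mc3 had log2 fold changes of 0.17 and 0.23 and did not pass, though Atp5mc3 did without naphthalene 1 (edgeR adjusted p = 0.0349) and with length and GC offsets (0.0332). Atp5o, which ties the stalk to the head, had 63.2, 61.1, 73.3 and 75.5 CPM in naphthalene lungs, against 49.2, 54.6, 50.2 and 53.0 CPM in control lungs (0.40, SE 0.08, edgeR adjusted p = 0.0105). All 3 genes separated the groups.

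Atp5f1a, the alpha subunit, and Atp5d rose by 0.28 and 0.33 with edgeR adjusted p of 0.0462 and 0.0321. Atp5f1a lost the call without control 1, control 2, control 3, naphthalene 2 or naphthalene 3, at 0.0972 to 0.138. It also lost it with the replicate block (0.0681), upper quartile scaling (0.0684) and no filter (0.0783). Atp5d lost it without any 1 of the controls, naphthalene 2 or naphthalene 3, at 0.0541 to 0.0888, and with no filter, at 0.0548. Atp5if1, the inhibitor that stops the synthase from running backwards, pointed the other way. It had 30.2, 32.7, 47.4 and 54.9 CPM in naphthalene lungs, against 43.9, 52.1, 54.3 and 53.2 CPM in control lungs. Naphthalene 1 and naphthalene 2 lay below all controls and naphthalene 4 above them. Its log2 fold change was −0.31 (SE 0.22, edgeR adjusted p = 0.222), and without naphthalene 4 it passed, at −0.47 (edgeR adjusted p = 0.0416).

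The regions before the starts of these genes were searched for the cores of factors known to bind respiratory gene promoters: nuclear respiratory factor 1 (GCGCA, any base, then GCGC), ETS factors such as GABP (CCGGAAG) and YY1 (AAGATGGCG), and for TATAAA, on both strands. An ETS core can overlap a YY1 core by its closing AAG. Windows of 300 bases, with 250 before the start, were available for 77 of the 101 nuclear genes. Among 17 genes that rose, 6 (35.3%) held the nuclear respiratory factor 1 core and 6 (35.3%) the ETS core. Among 55 tested genes that did not pass, the shares were 23.6% and 21.8%. Among all 10973 tested protein-coding genes with a window 1101 held the first, and 17.9% the ETS core. The YY1 core was in 0 of the 17 and in 14.5% of the 55, against 3.06% of all, and TATAAA in 5.88%, 9.09% and 9.97%.

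The windows of 3 genes are shown, from RefSeq on GRCm38.p6, with matches to the first 3 cores in capitals. These 3 do not stand for the 17 genes that rose, of which 6 held the nuclear respiratory factor 1 core. Ndufb6 and Sdhb, which also rose and are not shown, have an ETS core and no nuclear respiratory factor 1 core. Cox6a1, the gene of smallest p, has a pair of nuclear respiratory factor 1 cores and an ETS core, Uqcrc1 has a pair of nuclear respiratory factor 1 cores close to its start, and Atp5f1b, the gene of smallest p in complex V, has none of the cores. They lie at chr5:115348909-115349208 (minus), chr9:108936398-108936697 (plus) and chr10:128083057-128083356 (plus). A match describes these letters and is not a bound site:
Cox6a1: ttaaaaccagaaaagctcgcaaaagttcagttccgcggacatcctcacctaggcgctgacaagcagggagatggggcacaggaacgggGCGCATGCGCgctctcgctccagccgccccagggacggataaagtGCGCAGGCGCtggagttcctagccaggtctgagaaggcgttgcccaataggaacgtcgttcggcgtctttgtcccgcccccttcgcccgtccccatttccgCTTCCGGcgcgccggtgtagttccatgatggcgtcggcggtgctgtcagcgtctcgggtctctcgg
Uqcrc1: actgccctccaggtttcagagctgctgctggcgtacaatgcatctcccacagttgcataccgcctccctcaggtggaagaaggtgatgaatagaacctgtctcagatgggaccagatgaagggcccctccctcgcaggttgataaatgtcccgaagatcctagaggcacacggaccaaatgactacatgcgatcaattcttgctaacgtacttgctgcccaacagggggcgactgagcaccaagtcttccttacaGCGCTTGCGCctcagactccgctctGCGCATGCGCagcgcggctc
Atp5f1b: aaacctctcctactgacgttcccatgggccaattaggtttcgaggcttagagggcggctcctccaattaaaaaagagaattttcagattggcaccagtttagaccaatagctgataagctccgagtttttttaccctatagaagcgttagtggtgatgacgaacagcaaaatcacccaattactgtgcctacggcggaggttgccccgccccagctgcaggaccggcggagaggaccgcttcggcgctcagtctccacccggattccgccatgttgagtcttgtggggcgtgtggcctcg

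Genes that work with the chain were followed in lists that were chosen with earlier results of these data known. Of 12 electron carrier and quinone synthesis genes tested, 5 rose (41.7%, beside 14.1% of all genes tested) and 0 fell. Cycs, cytochrome c itself, had 36.4, 45.5, 65.9 and 64.4 CPM in naphthalene lungs, against 27.6, 32.7, 31.7 and 31.7 CPM in control lungs, without overlap (log2 fold change 0.77, edgeR adjusted p = 0.00752). Coq7 and Pdss1 of ubiquinone synthesis rose by 0.57 and 0.48. Pdss1 kept its call only without naphthalene 1 among the fits that leave out 1 library (edgeR adjusted p 0.0517 to 0.0981 in the other 7), and lost it in voom (0.0521). Assembly factors outside the symbol families rose in 3 of 8 cases for complexes II and III (Uqcc2 0.69, Sdhaf1 0.65 and Sdhaf2 0.29). They rose in 3 of 20 cases for complex IV (Cox18 0.63, Cox19 0.48 and Higd1a 0.41) and in 0 of 3 for complex V, and 0 fell. The shares were 37.5%, 15.0% and 0%, so that of complex IV was near the 14.1% of all genes tested. Sdhaf2 and Cox19 lost the call without control 1, control 3, control 4, naphthalene 2 or naphthalene 3, at edgeR adjusted p of up to 0.113 and 0.0917, and Sdhaf2 also with upper quartile scaling (0.0600) and no filter (0.0748). Higd1a lost it without any 1 library but naphthalene 1, at 0.0565 to 0.124, with upper quartile scaling (0.0614) and in voom (0.0662).

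Protein import and the carriers and porins supply and connect the organelle. Beside 14.1% of all genes tested, 58.8% and 62.5% of these 2 lists rose. Of 17 tested genes of mitochondrial protein import, 10 rose, 0 fell and the median log2 fold change was 0.45. Tomm40, the outer membrane channel, had 31.2 ± 6.74 CPM in naphthalene lungs and 14.1 ± 0.83 CPM in control lungs (SD, n = 4 each), a log2 fold change of 1.14 (edgeR adjusted p = 0.000459). Hspa9, the matrix chaperone that pulls proteins in, rose by 0.71, and Timm50, a receptor of the inner membrane, by 0.65. Of 8 carriers, porins and uncoupling proteins tested, 5 rose and 0 fell. Slc25a4 and Slc25a5, which exchange ADP for ATP, rose by 0.48 and 0.61, and the porin gene Vdac2 by 0.47.

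In the tricarboxylic acid cycle and at pyruvate dehydrogenase, 6 of 19 tested genes rose (31.6%, beside 14.1% of all genes tested) and 0 fell. Among those that rose were Mdh2 by 0.43, Dlat by 0.37 and the kinase gene Pdk4 by 2.26. Pdk4 encodes an inhibitor of pyruvate dehydrogenase, and so acts against the entry of pyruvate into the cycle.

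Of 18 tested genes that copy and transcribe mitochondrial DNA or stabilise its RNA, 1 rose (5.56%, beside 14.1% of all genes tested) and 0 fell. The one that rose was Polg2, the accessory subunit of the mitochondrial DNA polymerase, at 13.9 ± 0.90 CPM in naphthalene lungs and 9.89 ± 0.53 CPM in control lungs (SD, n = 4 each; log2 fold change 0.49, edgeR adjusted p = 0.0089). Tfam, which packs and transcribes the mitochondrial genome, and the RNA polymerase Polrmt were at 0.16 and 0.30, with edgeR adjusted p of 0.316 and 0.104. Polrmt passed without naphthalene 4 (0.0434) and with length and GC offsets (0.00936).

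Among 10 nuclear regulators of respiratory genes tested, 0 rose and 2 fell, and the median log2 fold change was −0.16. Over all genes tested, 14.1% rose and 14.6% fell. Nrf1, nuclear respiratory factor 1, had 77.2, 68.9, 65.0 and 63.6 CPM in naphthalene lungs, against 84.6, 87.6, 86.8 and 82.9 CPM in control lungs. All naphthalene libraries lay below all controls, and Nrf1 fell by 0.31 on the log2 scale (edgeR adjusted p = 0.0201), with an adjusted p of 0.0561 to 0.0626 without control 2, naphthalene 2 or naphthalene 3. Gabpb2, a subunit of the ETS-type factor GABP, fell by 0.26 (edgeR adjusted p = 0.0283), also without overlap. It lost the call without control 1, control 2, control 4, naphthalene 2 or naphthalene 3, at 0.0633 to 0.0849, and with length and GC offsets its adjusted p was 0.811. The coactivator gene Ppargc1a was at −0.22 and did not pass (edgeR adjusted p = 0.473).

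Of 10 hypoxia-responsive genes, 5 rose and 1 fell, beside 14.1% that rose and 14.6% that fell of all genes tested. Ankrd37 rose by 0.92, Bnip3, a mitophagy receptor, by 0.61 and the lactate dehydrogenase gene Ldha by 0.39. The gene that fell was Car9, a carbonic anhydrase, by 0.75 and at a low level. Its means were 1.88 CPM in naphthalene lungs and 3.14 CPM in control lungs. Its edgeR adjusted p was 0.0626 to 0.0854 without control 2, control 4, naphthalene 2 or naphthalene 3. Cox4i2 and Ndufa4l2, the hypoxia-responsive isoforms described above, did not pass with all libraries. The part of hypoxia in any of these values was not tested.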

How the data were processed

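Total RNA of whole lung lobes, treated with DNase on the column, was made into TruSeq stranded total RNA libraries, per the labels' protocols. The authors deposited 1 table of raw whole-number counts per gene symbol and library, with no normalisation. Per the submitters' processing notes, the genome build was mm39 and the tools were featureCounts 2.0.6, HISAT2 2.2.1, Trim Galore 0.6.7 and edgeR 4.2.1, with no role stated. Annotation, strand setting and handling of multi-mapping reads: not given in the sources used here.

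The oxidative phosphorylation genes and the other lists were chosen with earlier results of these data known. The test was run with edgeR 4.0.16 in R 4.3.3 (TMM scaling, filterByExpr with minimum count 10 and minimum total 15, quasi-likelihood test, group as the only term), on all genes. Benjamini-Hochberg adjusted p under 0.05 counted as a call. CPM (counts relative to library size) are TMM-scaled, and the SE belongs to the difference between mean log2 CPM (prior count 2) of the groups. Isoform ratios were tested by exact 2-sided permutation over 70 splits, with 0.5 added to counts. Genes named by p were, in each of complexes I, III, IV and V, the assembly factors and each list, up to 3 higher and 3 lower of smallest p past the threshold. Isoform genes, Sdha to Sdhd, Cyc1, Atp5if1 and mitochondrial genes were always named, and other genes were named after their values were seen. Results for single genes may be left out and are then not reported here. The procedure was tested on simulated data. Precision is set by 4 libraries per group and 10743842 to 16792306 counts per library. P values set the difference between groups against the variation between these libraries, each taken as 1 mouse.

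Alternatives were RLE and upper quartile scaling, mitochondrial genes left out of scaling, no filter, a stricter filter, DESeq2 1.42.0, voom in limma 3.58.1, a replicate block, length and GC offsets, and each library left out. Leaving out control 3 with naphthalene 1 was added after seeing the data. Lengths, copies and sequences came from GENCODE M21 and RefSeq on GRCm38, whereas the counts are on mm39, with lengths for 109 of the 114 genes.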

Additional observations from a re-analysis of the deposited data

Results flagged for a closer look

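In 6 of 92 groups of 4 libraries, 1 library stood apart from the other 3 by more than Dixon's 95% critical value, and chance alone flags about 1 in 20 groups. Control 1 was that library in 5 of them. It had 44.3 CPM of Cox8a, against 58.3 to 59.3 CPM in the other controls. It had 16.6 CPM of Ndufa11, against 19.2 to 19.8 CPM, and 58.1 CPM of Sdhd, against 62.2 to 63.1 CPM. For mt-Co2 it had 4.03 CPM, against 5.10 to 5.30 CPM, and for mt-Nd6 it stood above the rest, with 79.2 CPM against 50.8 to 53.3 CPM. In the remaining case, control 3 had 53.0 CPM of Cox6a1, against 49.9 to 50.3 CPM in the other controls, still below every naphthalene library.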

How the results depend on the processing

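Each of the 22 chain genes and 27 named list genes that had passed kept its sign under every alternative tried. The number of nuclear genes that rose, 22, lay between 11 and 42 with 1 library left out, and was 40 without control 3 and naphthalene 1 together. The number that fell, 0, was 0 to 1 with 1 library left out (Ndufa4l2 without naphthalene 1 and Atp5if1 without naphthalene 4), and 1 without control 3 and naphthalene 1. The number of mitochondrially encoded genes that fell, 0, was 1 in DESeq2, without the low-count filter and in voom, each time mt-Nd2, and 3 with length and GC offsets (mt-Cytb, mt-Nd2 and mt-Nd4). It was 0 to 2 with 1 library left out. Without control 3 and naphthalene 1, 1 mitochondrially encoded gene rose, mt-Co3. Length and GC offsets moved the count of higher genes overall to 3226. The cause was not tested. Among the other alternatives the nuclear genes called numbered 26 in DESeq2, 22 with RLE scaling or a stricter filter, 21 in voom and 18 with upper quartile scaling or no filter. Over all alternatives, 127 chain genes and list genes kept their side of the threshold in 2073 cases, lost a call in 123 and gained one in 86. Of 27 named list genes that passed, 19 passed under every alternative. No isoform pair passed under any alternative. With 1 library left out none could pass, since the smallest p of the exact permutation test then exceeds the threshold, and scaling does not enter these ratios. The log2 ratio of the mitochondrial sums, −0.07, lay between −0.20 and 0.09 with 1 library left out.

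With the replicate number as a block, 32 nuclear genes were called, 21 of them among the 22 (all but Atp5f1a), and 1 mitochondrially encoded gene, mt-Nd2. Libraries of the same number share only a number: their deviations correlated at 0.287, 0.033, 0.185 and −0.093, and not every library correlated best with its own number.

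Low counts limit the rare isoforms, the unknown handling of multi-mapping reads limits the mitochondrial genes with nuclear copies, and genes of chromosome 1 listed at 0 gave no comparison.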
